A study of Rattus norvegicus with 24 samples.

Results

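The comparison described here was of lung RNA from rats that received crystalline silica and cigarette smoke with lung RNA from rats that breathed air, by RNA sequencing of whole lung tissue. The members were the 6 libraries labelled silica plus smoke (called the combined group below) and the 6 labelled air, 12 of the 24 libraries of the series. All 30043 genes of the table were members on the gene side, of which 13049 had enough counts to be tested. All animals were male Fischer 344 rats, 3 months old when purchased. They were exposed in a whole-body inhalation chamber over 29 weeks. The air group breathed air throughout. The combined group received smoke at 45 mg/m3 in week 1 and at 80 mg/m3 in the later smoke weeks, for 3 hours a day on Tuesdays and Fridays. In week 3 smoke was replaced by Min-U-Sil5, a respirable crystalline silica, at 15 mg/m3 for 6 hours a day on 5 days. The other 2 groups, used only to locate differences, received the same silica alone, or smoke alone with 40 mg/m3 in week 1. The labels give neither the interval between the last exposure and tissue collection nor the hour of collection.

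As background, inhaled silica particles are taken up by alveolar macrophages, where they damage lysosomes and trigger the release of interleukin 1 and chemokines. Recruited neutrophils and monocytes, a filling of the air spaces with surfactant and, later, collagenous nodules are the known course in rodents and in people. Cigarette smoke adds oxidants and aryl hydrocarbon receptor ligands, and loads macrophages with lipid. The lung also holds a circadian clock, in which Arntl and Clock (or Npas2) drive transcription of their own repressors, the Per, Cry and Nr1d genes.

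The 12 libraries held 1084815 to 4687805 counts (median 2692576), and 16413 to 18971 genes had at least 1 count. Levels are given as CPM (a gene's counts scaled to its library's own total), each group by its lowest, median and highest library, and differences as log2 fold changes of the combined group over air with their standard errors. A gene was called higher or lower at a Benjamini-Hochberg adjusted p under 0.05 in edgeR's quasi-likelihood test, and all adjusted p-values below come from it. Defining genes of lung epithelium (Sftpc, Scgb1a1, Ager), endothelium (Cldn5) and macrophages (Lyz2) were counted in all 12 libraries. The library air 6 stood apart from the other 5 air libraries. It lay far above them (by a gap, relative to the group's range, above Dixon's 95% value for 6 samples) for 701 genes and far below them for 204, 6.94% of the genes tested, against 0.353% to 2.9% for each of the other 11 libraries. Among those 11 the highest share was that of combined 4, which had the fewest counts. Cyp1a1, the enzyme classically induced by aryl hydrocarbon receptor ligands, had 140 counts (29.9 CPM) in air 6 and 0 or 1 count in each of the other air libraries. It was too low elsewhere to be tested, with 1 to 3 counts in each combined library. Results are therefore also given without air 6 where its removal changed a count or a call, or moved a called value by over 1.5 times.

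Of the 13049 genes tested, 1577 (12.1%) were higher and 1495 (11.5%) were lower in the combined group, and 23.5% were called in either direction. These shares are the background for the counts of each gene list below. Without air 6 the counts were 1784 higher (13.6%) and 1599 lower (12.2%) of 13128 genes. When libraries were scaled by their total counts alone, the split moved to 1305 higher and 1901 lower, and the median log2 fold change of all genes moved from -0.0078 to -0.055. All 6 combined libraries lay above all 6 air libraries for 709 genes (5.43%) and below them for 824 (6.31%). The largest rises and falls were ranked among genes called under every single-library omission and by 3 methods and without overlap between the groups. Genes with a mean below 1 CPM, genes with only a locus identifier and RT1 genes were passed over. The 15 largest rises so chosen were larger than the 15 largest falls. The rises ran from 3.16 ± 0.55 for Bpifb1 to 5.64 for Spp1 and 9.53 for Lpo. The value of Lpo rests on 1 count in the air group and is not a measure of size. The falls ran from -1.17 ± 0.21 for Gnat2 to -2.02 ± 0.45 for Sh2d7. The plot of all genes against their mean level shows the same lopsided range.

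**Figure D1:**
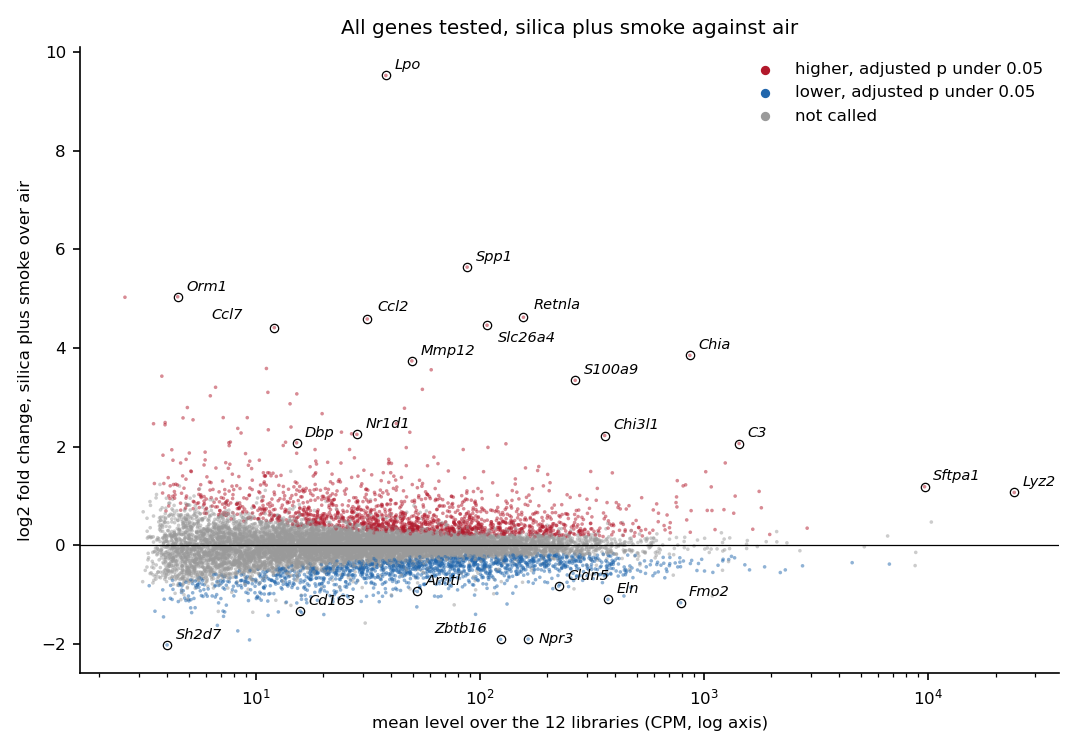
Each point is 1 of the 13049 genes tested, with its mean level over the 12 libraries (CPM, log axis) on the x axis and its log2 fold change, combined over air, on the y axis. Red and blue points are the 1577 genes called higher and the 1495 called lower, grey points were not called, and named genes are circled. The rises reach 9.53 (Lpo, a value that rests on 1 count in the air group) while no circled gene falls below -2.02 (Sh2d7).

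The largest rise belonged to Lpo, which encodes lactoperoxidase, a secreted airway enzyme that turns thiocyanate and hydrogen peroxide into an antimicrobial oxidant. It had 1 count over all 6 air libraries together and 83 to 236 counts in each combined library, 1039 in all. The ratio of its CPM was 1308, with an exact counting interval of 234 to 51705, so its fitted log2 value is not a measure of size. Other genes of the same defence system rose with it. Slc26a4, the anion exchanger pendrin that can carry thiocyanate into the airway lumen, lay between 3.41 and 21.7 CPM in air (median 5.78) and between 182 and 226 CPM in the combined group (median 205). It rose by 4.46 ± 0.30 (adjusted p = 1.79e-08). Duox1, a hydrogen peroxide source, rose by 1.94 ± 0.17 and its maturation factor Duoxa1 by 1.21 ± 0.25. Chia, acidic chitinase, went from a median of 119.7 to 1575 CPM (3.85 ± 0.13), and Pigr, which carries IgA across epithelium, from 931 to 1790.5 CPM (1.00 ± 0.12). None of these levels overlapped between the groups. Of the 22 airway secretory and defence genes listed, 15 were tested, of which 7 were higher and 1 lower, and 9 and 1 without air 6. Bpifb1, a secreted antibacterial lipid-binding protein, was at 46.3 CPM in air 6 while the remaining 5 air libraries reached no more than 2.39 CPM, and its log2 fold change was 3.16 with air 6 and 6.07 without it. Muc5b, a gel-forming mucin, was at 0.47 (adjusted p = 0.651) with air 6 and at 2.23 (0.00053) without it. Scgb1a1, the main secretory product of club cells, lay between 1447 and 2436 CPM in air (median 1660.4) and between 1034 and 2422 CPM in the combined group (median 1623) and was not called (-0.024 ± 0.17, adjusted p = 0.948). Aldh1a1, a retinoic acid enzyme, was the member called lower (-0.30 ± 0.10, adjusted p = 0.0369), a call lost without any one of air 2, air 3 and combined 2, 3, 5 and 6 (adjusted p 0.061 to 0.0905).

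Chemokines that draw monocytes and neutrophils rose. Ccl2, the main monocyte chemoattractant, lay between 0.521 and 5.25 CPM in air (median 2.11) and between 45.0 and 72.0 CPM in the combined group (median 62.7), a difference of 4.59 ± 0.24 (adjusted p = 8.85e-10). Ccl7, which acts on the same receptor, rose by 4.42 ± 0.27. Cxcl6, a neutrophil chemokine, lay between 0.213 and 4.79 CPM in air (median 2.67) and between 11.9 and 24.9 CPM in the combined group (median 20.6) and rose by 3.10 ± 0.33. Every combined library was above every air library for these 3 genes, and for Ccl9 (1.47 ± 0.31) and Ccl3 (1.45 ± 0.22) as well. Of 19 chemokines tested (30 were listed), 9 were higher and 2 lower (10 and 2 without air 6), with a median of 0.69 against -0.0078 over all genes tested. The 2 called lower were Cxcl14, made by epithelium and stroma (-1.17 ± 0.34, and -0.66 without air 6), and the T cell chemokine Ccl5 (-0.60 ± 0.19, adjusted p = 0.0337). The call of Ccl5 was lost in 9 of the 12 fits that left out 1 library (adjusted p 0.0549 to 0.0804). Ccl6, an abundant macrophage chemokine, had medians of 336 and 336 CPM and was not called (0.17 ± 0.26, adjusted p = 0.691, and -0.042 without air 6). Among 14 chemokine receptors tested, 3 were higher and 2 lower, 35.7% called against 23.5% of all genes. Among those that rose were Ccr1 (0.90 ± 0.14) and Cxcr2 (0.62 ± 0.18, not called without combined 5, adjusted p = 0.0501), both carried by myeloid cells. The scavenging receptors Ackr4 (-0.95 ± 0.20) and Cxcr7 (-0.37 ± 0.12) were lower, the second not called without any one of air 1, 3 and 4 and combined 2, 4, 5 and 6 (adjusted p 0.0517 to 0.0789).

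Among cytokines and their receptors, 11 of 22 tested genes were higher and 3 lower, and 10 and 4 without air 6. The largest rises in this list were those of the 2 natural brakes on interleukin 1. Il1r2, a decoy receptor, lay between 0.684 and 2.08 CPM in air (median 1.36) and between 4.61 and 9.90 CPM in the combined group (median 9.54) and rose by 2.79 ± 0.26. Il1rn, the receptor antagonist, lay between 12.4 and 25.5 CPM in air (median 18.1) and between 47.1 and 81.7 CPM in the combined group (median 57.5) and rose by 1.75 ± 0.17 (adjusted p = 1.48e-06). Il1b itself rose less (0.80 ± 0.14), with a median of 20.9 CPM in air and 32.0 CPM in the combined group. Osm, an interleukin 6 family cytokine of myeloid cells, rose by 1.51 ± 0.35. Csf1, the macrophage growth factor, rose by 0.95 ± 0.10, and Csf2rb, a receptor chain for GM-CSF, by 1.10 ± 0.16, again with no overlap between the groups. Il33, an epithelial alarmin, fell by 0.39 ± 0.10, and the interleukin 4 receptor chain Il4r fell by 0.43 ± 0.11.

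The promoters of 4 of these inducible genes are shown. Within the 250 bases before the start and 50 after it, each holds a match to a pattern searched for NF-kB or AP-1, factors of acute inflammation. Sequences and coordinates are those of RefSeq on GRCr8, 5′ to 3′ on the gene's strand, in lower case with the motif in capitals. The NF-kB motif searched (3 G, any 2 bases, 3 T and 2 C, on either strand) was found in 4 of the 13 tested chemokines with a promoter in the RefSeq table (30.8%) and in 1.53% of all 33469 promoters. The AP-1 motif TGANTCA was found in 2 of those 13 (15.4%) and in 7.33% of all promoters. The first 2 carry the NF-kB motif, which starts 88 bases before the start site in Cxcl6 (chr14:17596368-17596667, minus strand) and 129 before it in Il1rn (chr3:27520072-27520371, plus strand). The last 2 carry the AP-1 motif, 73 bases before the start site in Ccl7 (chr10:67513845-67514144, plus strand) and 87 before it in Mmp12 (chr8:12866402-12866701, plus strand). Both patterns leave bases free, so a match need not be a site that the factor prefers. It is a description of the letters, and binding was not measured.
Cxcl6: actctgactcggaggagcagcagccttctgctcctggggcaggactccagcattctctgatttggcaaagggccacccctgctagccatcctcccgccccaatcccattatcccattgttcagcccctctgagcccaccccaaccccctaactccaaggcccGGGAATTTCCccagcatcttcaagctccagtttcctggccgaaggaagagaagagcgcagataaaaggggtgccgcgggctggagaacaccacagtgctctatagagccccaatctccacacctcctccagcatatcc
Il1rn: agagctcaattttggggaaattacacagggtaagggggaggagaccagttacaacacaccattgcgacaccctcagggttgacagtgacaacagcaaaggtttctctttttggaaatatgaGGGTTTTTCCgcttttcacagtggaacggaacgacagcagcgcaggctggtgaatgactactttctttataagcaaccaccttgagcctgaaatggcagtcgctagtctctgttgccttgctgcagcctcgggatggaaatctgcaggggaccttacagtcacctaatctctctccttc
Ccl7: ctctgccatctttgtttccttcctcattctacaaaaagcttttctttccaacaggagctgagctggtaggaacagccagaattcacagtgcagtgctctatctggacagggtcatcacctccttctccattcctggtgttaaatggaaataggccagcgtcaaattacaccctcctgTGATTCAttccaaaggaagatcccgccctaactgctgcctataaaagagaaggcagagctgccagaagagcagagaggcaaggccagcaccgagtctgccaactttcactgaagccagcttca
Mmp12: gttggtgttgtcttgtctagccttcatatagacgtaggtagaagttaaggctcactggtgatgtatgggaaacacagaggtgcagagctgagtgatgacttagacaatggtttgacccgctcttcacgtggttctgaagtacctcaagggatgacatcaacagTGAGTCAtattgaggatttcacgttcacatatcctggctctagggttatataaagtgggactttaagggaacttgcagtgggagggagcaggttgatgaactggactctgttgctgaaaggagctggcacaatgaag

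Most neutrophil markers tested were higher. S100a9, a calcium-binding protein abundant in neutrophils, lay between 34.9 and 70.8 CPM in air (median 46.9) and between 264 and 630.2 CPM in the combined group (median 544), and rose by 3.35 ± 0.22 (adjusted p = 1.37e-08). Its partner S100a8 rose by 2.29 ± 0.20. Trem1, an amplifying receptor, rose by 1.41 ± 0.26, Ncf1, a cytosolic subunit of the phagocyte oxidase, by 1.37 ± 0.14, and Csf3r, the G-CSF receptor, by 0.81 ± 0.17. The groups did not overlap for the first 4 of these 5 genes. Of 18 neutrophil markers listed 10 were tested, and the lowest log2 fold change among them was -0.45, which was not called. In all, 6 of the 10 were higher and none lower, and 7 were higher without air 6. The gene added was Lcn2, which encodes the iron-trapping protein lipocalin 2. Lcn2 was at 68.3 CPM in air 6 and at 8.85 to 20.98 CPM in the other air libraries, against 37.6 to 56.1 CPM in the combined group. Its difference was 0.92 ± 0.39 (adjusted p = 0.0951) with air 6 and 1.85 (6.54e-08) without it, and limma voom called it with all libraries (1.27, 0.0188). Mpo, Elane, Ltf and Camp, granule genes that mark immature neutrophils, were too low to be tested. So were the other neutrophil markers Mmp9, Fpr1, Fpr2 and Prok2, so the list does not tell the stage of these cells. In bulk tissue, more cells of a type and more RNA per cell cannot be told apart, here or below.

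Most macrophage genes tested rose. Of 19 macrophage markers tested, 13 were higher and 1 was lower, with a median of 0.83. Lyz2, lysozyme, lay between 9202 and 20894 CPM in air (median 16384) and between 28855 and 34854 CPM in the combined group (median 33176), a difference of 1.07 ± 0.17. Itgam, an integrin chain of myeloid cells recruited from blood, rose by 1.79 ± 0.10, the sialic acid receptor Siglec1 by 1.47 ± 0.15, and the scavenger receptor Msr1 by 1.27 ± 0.23. Csf1r, the receptor that defines the lineage, did not pass the test (0.046 ± 0.07, adjusted p = 0.688), nor did the mannose receptor Mrc1 (0.24 ± 0.14, 0.232). Cd163, the haemoglobin scavenger receptor of interstitial macrophages, was the marker that fell. It lay between 10.4 and 27.8 CPM in air (median 24.9) and between 7.38 and 10.3 CPM in the combined group (median 7.89), without overlap (-1.33 ± 0.23, adjusted p = 0.000438). Cd163 and Itgam, both genes of the macrophage lineage, thus moved in opposite directions.

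Most genes tested of lipid-handling and injury-associated macrophages rose. Spp1, osteopontin, a secreted matrix-binding cytokine, lay between 0 and 6.74 CPM in air (median 3.01) and between 113 and 267 CPM in the combined group (median 162). It rose by 5.64 ± 0.32 (adjusted p = 3.06e-09). Mmp12, the macrophage elastase, lay between 2.39 and 18.0 CPM in air (median 3.49) and between 60.9 and 124 CPM in the combined group (median 93.9) and rose by 3.74 ± 0.35. The 2 highest air libraries for Mmp12 were still below the lowest combined library. Fabp4 and Fabp5, fatty acid carriers, rose by 2.78 ± 0.20 and 1.57 ± 0.24, and Chi3l1, a chitinase-like protein, by 2.23 ± 0.10. Of 19 genes tested in this list 15 were higher and none was lower, and 17 were higher and 1 was lower without air 6. Apoe, the lipid carrier, was at 0.46 ± 0.18 (adjusted p = 0.0647), and passed the test without air 6, combined 4 or combined 5 (0.0487, 0.0291 and 0.0258) and in the fit of all 24 libraries (0.0418). Retnla, a small secreted protein made by alternatively activated macrophages and epithelium, lay between 3.12 and 30.9 CPM in air (median 5.94) and between 236 and 377 CPM in the combined group (median 302) and rose by 4.62 ± 0.31, or by 5.42 without air 6.

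Most lysosomal genes tested rose. Of 28 proteases, hydrolases and proton pump subunits tested 22 were higher and none was lower, and 23 were higher without air 6. The largest rises were those of Atp6v0d2 (2.09 ± 0.35), a proton pump subunit, and the cathepsins Ctsk (1.66 ± 0.26), Ctsz (1.35 ± 0.13) and Ctsh (1.31 ± 0.11). Ctsd, an abundant aspartic protease of lysosomes, lay between 409.6 and 1524 CPM in air (median 1243) and between 1929 and 2895 CPM in the combined group (median 2357), without overlap (1.09 ± 0.22). Ctsl, another cathepsin, was at -0.12 ± 0.10 and not called (adjusted p = 0.425). Among 23 activating and inhibitory myeloid receptors tested 11 were higher and none was lower, and 13 were higher without air 6. The 2 largest rises were those of inhibitory receptors, Lilrb4 (1.99 ± 0.09) and the Fc receptor Fcgr2b (1.98 ± 0.12), ahead of the activating Clec4e (1.56 ± 0.34). The summed level of the macrophage marker list ran from 10088 to 22351 CPM in air and from 30500.1 to 36471 CPM in the combined group. Most of that sum was Lyz2 alone (9202 to 20894 CPM in air, 28855 to 34854 CPM in the combined group), so it does not describe the list as a whole. The part of macrophage genes in the lysosomal rise was not tested.

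Complement and acute phase genes had the highest median of the 42 lists, 0.97, with 23 of 27 tested genes higher and none lower. Without air 6, 25 were higher and the median was 0.96, below those of airway secretory and defence genes (1.11) and neutrophil markers (1.06). C3, the hub of the complement cascade, lay between 322 and 678 CPM in air (median 622) and between 2100.3 and 2506 CPM in the combined group (median 2328), a difference of 2.07 ± 0.15 (adjusted p = 6.49e-08). Cfb, its partner in the alternative pathway convertase, rose by 1.67 ± 0.10, and C4b, of the classical pathway, by 1.60 ± 0.17. Regulators rose as well. Cfi, the protease that inactivates C3b, lay between 4.17 and 18.7 CPM in air (median 8.12) and between 88.8 and 133 CPM in the combined group (median 117) and rose by 3.56 ± 0.22. Of the acute phase proteins, Hp (haptoglobin) rose by 1.94 ± 0.09 and the pentraxin Ptx3 by 2.37 ± 0.25. The gene listed as Saal1, whose identifier belongs to serum amyloid A3 in RefSeq, rose by 3.21 ± 0.33, or by 3.92 without air 6. Orm1, alpha-1-acid glycoprotein, had 4 counts over the 6 air libraries and 124 over the 6 combined libraries, a CPM ratio of 39.0 with a counting interval of 14.9 to 145.5. C7, a terminal component abundant in stroma, had medians of 622 and 756 CPM and was not called (0.16 ± 0.17, adjusted p = 0.545), but was at 0.41 (0.000492) without air 6.

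**Figure D2:**
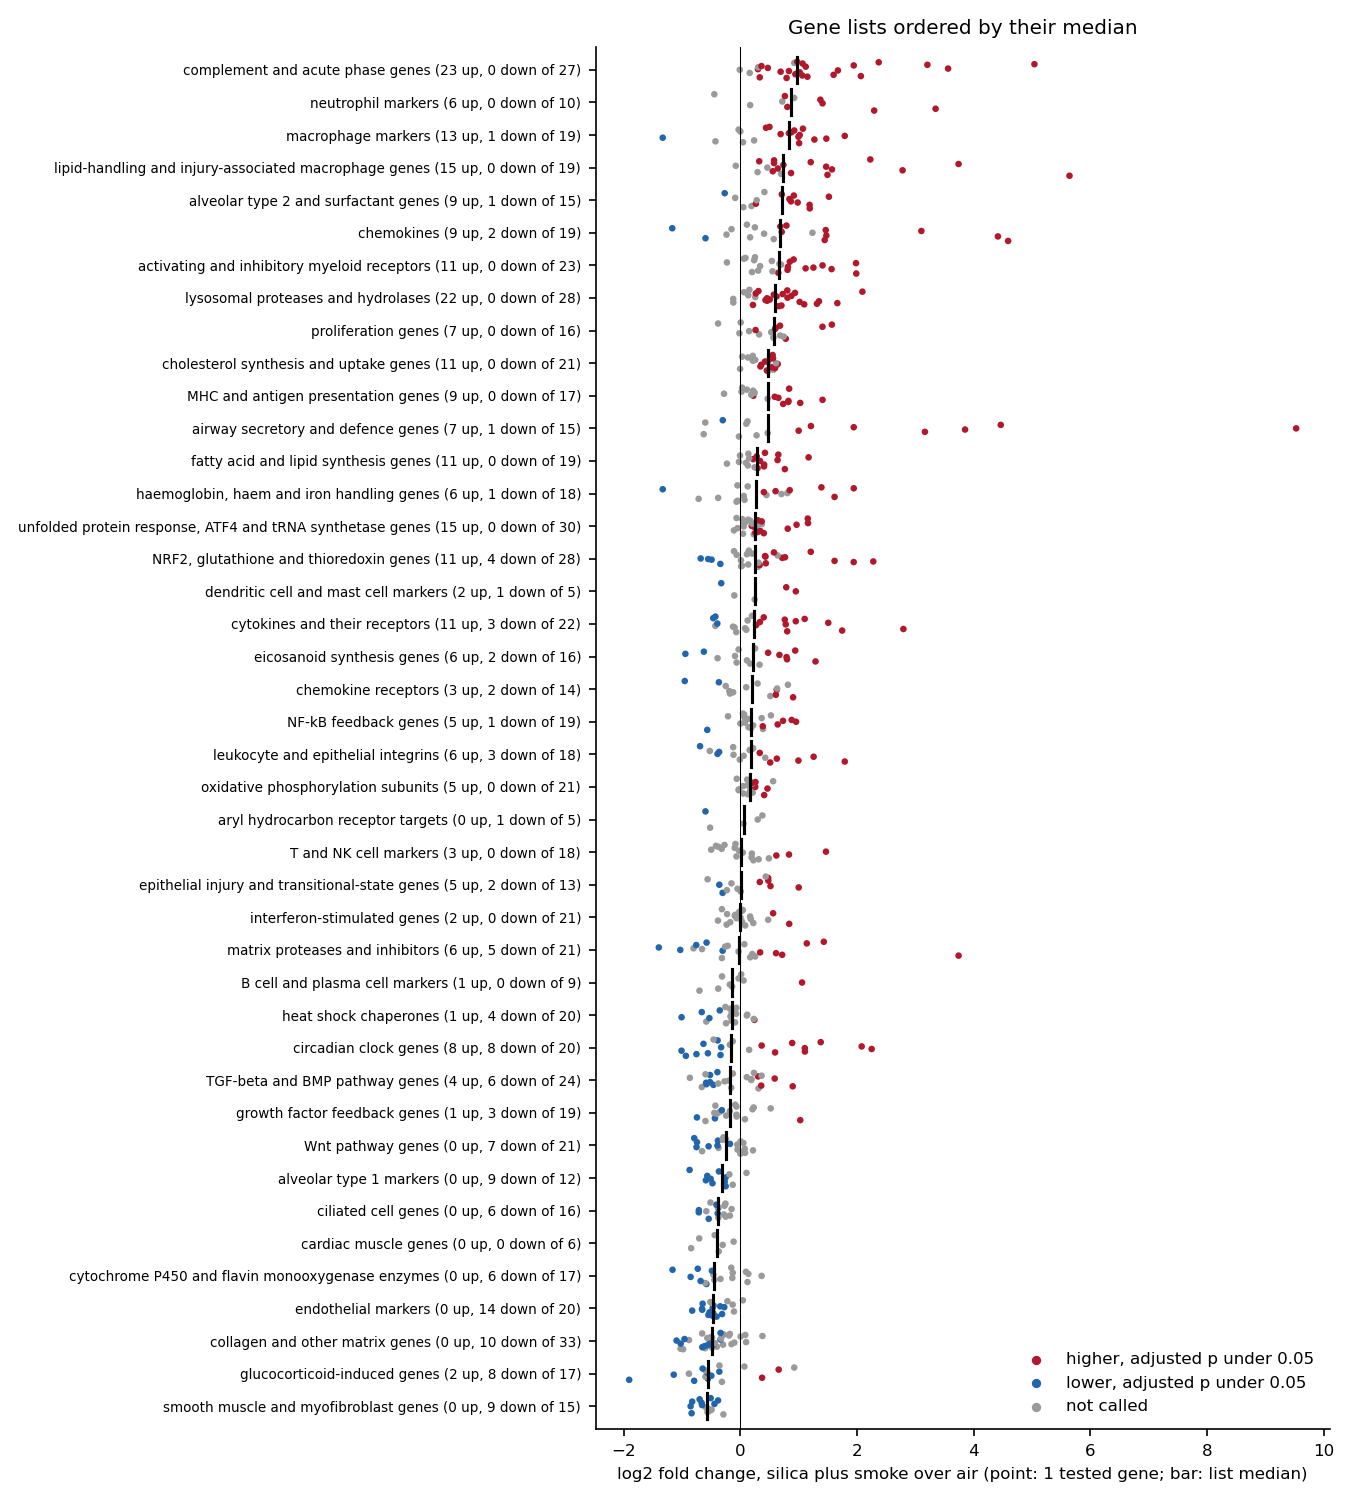
Each point is 1 tested gene of a list, at its log2 fold change (combined over air) on the x axis, and each row is 1 of the 42 lists with its counts of genes higher and lower. Black bars are list medians, which run from -0.56 for smooth muscle and myofibroblast genes to 0.97 for complement and acute phase genes. Red and blue points were called higher and lower.

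The gas-exchange epithelium split by cell type. Of 15 alveolar type 2 and surfactant genes tested 9 were higher and 1 was lower, and 8 and 1 without air 6. Sftpa1, a surfactant collectin, lay between 4401 and 7978 CPM in air (median 5779) and between 11701 and 14518 CPM in the combined group (median 13469.7), and rose by 1.19 ± 0.14 (adjusted p = 9.13e-06). The second collectin, Sftpd, rose by 1.19 ± 0.11, the lamellar body gene Lamp3 by 0.98 ± 0.11, the lung epithelial transcription factor Nkx2-1 by 0.92 ± 0.15 and Muc1, a membrane mucin, by 1.52 ± 0.21. None of these overlapped between the groups. The hydrophobic surfactant proteins were not called. Sftpc lay between 4216 and 7591 CPM in air (median 6441) and between 6194 and 8361 CPM in the combined group (median 6765) (0.19 ± 0.13, adjusted p = 0.322), and Sftpb was at 0.052 ± 0.12 (0.794). Whether the collectins and the hydrophobic proteins differed from each other in their change was not tested. Of 12 alveolar type 1 markers tested 9 were lower and none was higher, 10 without air 6. Rtkn2 lay between 333 and 497 CPM in air (median 454) and between 263 and 306 CPM in the combined group (median 279.9) and fell by 0.59 ± 0.09, Akap5 fell by 0.57 ± 0.09, the caveolar protein Cav1 by 0.51 ± 0.07 and Ager, the receptor for advanced glycation end-products, by 0.25 ± 0.07 (not called in the fit of all 24 libraries, adjusted p = 0.288). Among 13 genes of injured or transitional epithelium 5 were higher and 2 lower. Cldn4, a tight junction protein induced on injured alveolar cells, rose by 1.00 ± 0.28, a call lost without combined 1 (0.77, adjusted p = 0.0605).

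Most endothelial and mural cell genes tested were lower. Of 20 endothelial markers tested 14 were lower (15 without air 6) and none was higher, with a median of -0.47. Cldn5, the tight junction protein of endothelium, lay between 227 and 358 CPM in air (median 286) and between 137 and 166 CPM in the combined group (median 163), without overlap (-0.82 ± 0.10, adjusted p = 2.53e-05). Plvap, of fenestrae and caveolae, fell by 0.66 ± 0.08, the TGF-beta co-receptor Eng by 0.65 ± 0.08, the lymphatic marker Lyve1 by 0.65 ± 0.12 and Vwf, von Willebrand factor, by 0.55 ± 0.08. Of 15 smooth muscle and myofibroblast genes tested 9 were lower and none was higher, with a median of -0.56. Without air 6, in which some of these genes were far above the other air libraries, 8 were lower and the median was -0.32. The platelet-derived growth factor receptors Pdgfrb (-0.82 ± 0.17, -0.58 without air 6) and Pdgfra (-0.66 ± 0.09, -0.73) and the actin-binding Lmod1 (-0.85 ± 0.25, -0.58) were among them. Tagln, a contractile protein, was not called (-0.56 ± 0.25, adjusted p = 0.118, and -0.15 without air 6).

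Of 33 collagen and other matrix genes tested, 10 were lower and none was higher with all 12 libraries, and without air 6 there were 11 lower and 2 higher. The list median moved from -0.48 to -0.11. Col1a1, the main chain of type I collagen, lay between 44.4 and 480 CPM in air (median 108) and between 62.9 and 115 CPM in the combined group (median 68.8). The highest of those air values was that of air 6, and without it the air libraries reached 119 CPM. Its difference was -0.98 ± 0.44 (adjusted p = 0.118) with air 6 and -0.13 (0.695) without it. Col3a1 was at -1.02 (0.0857) and -0.073 (0.48). In the fit of all 24 libraries, which keeps air 6, both were called lower (adjusted p = 0.0453 and 0.029). Of the 10 genes called lower, 9 were also called lower without air 6. The largest of these 9 falls were those of Eln, the elastin gene (-1.09 ± 0.25, -0.69 without air 6), its partner Fbln5 (-0.96 ± 0.27, -0.55) and Col14a1 (-1.02 ± 0.22, -0.74). The 2 genes called higher without air 6 were Thbs2 (1.36, adjusted p = 0.000332), a matricellular thrombospondin, and the proteoglycan Vcan (0.64, 0.00208), both of which limma voom with quality weights also called with all 12 libraries (1.19 and 0.55, adjusted p = 0.00503 and 0.0305). The plot of matrix genes with and without air 6 shows this shift gene by gene.

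**Figure D3:**
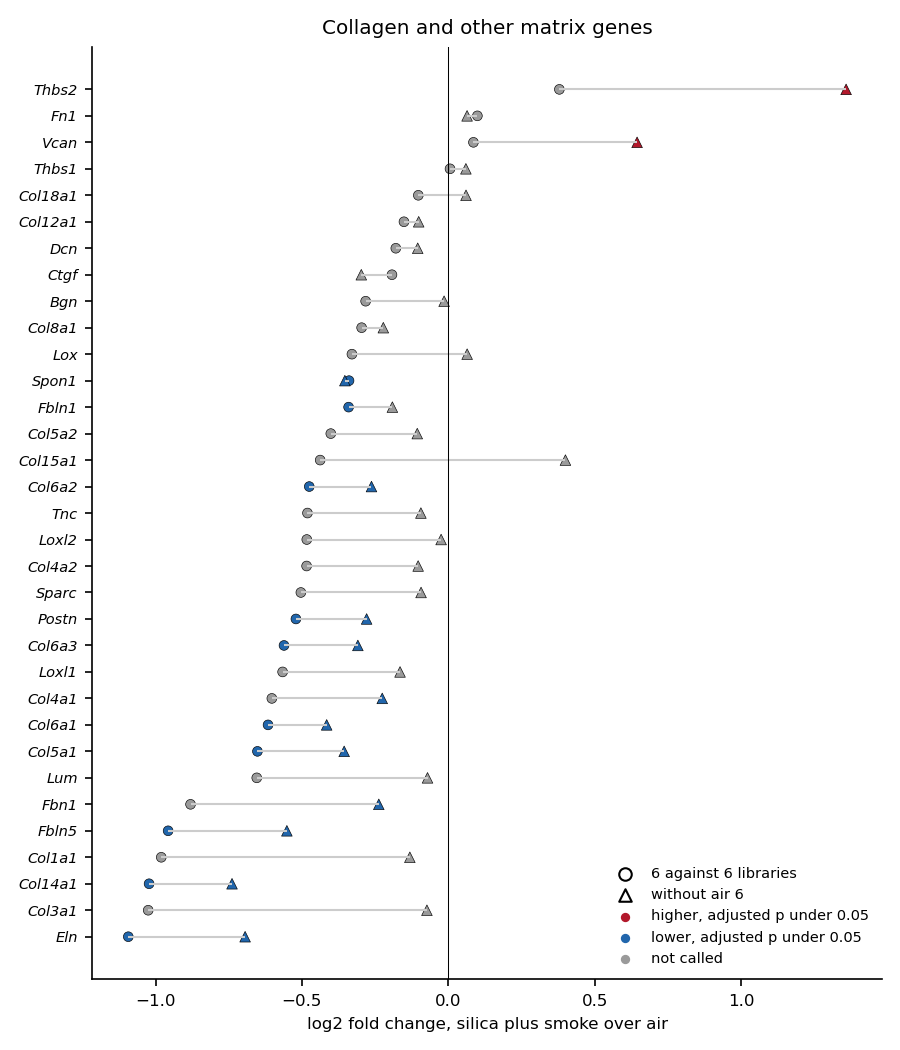
Each row is 1 of the 33 tested collagen and other matrix genes, with its log2 fold change (combined over air) on the x axis from 6 against 6 libraries (circles) and without air 6 (triangles). Colours mark calls. Most triangles lie to the right of their circles, for example Col1a1 at -0.98 and -0.13, while Eln stays lower (-1.09 and -0.69).

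Among 21 matrix proteases and their inhibitors tested 6 were higher and 5 lower. Beside Mmp12, Plaur, the urokinase receptor of the plasminogen system, rose by 1.14 ± 0.18. Adamts9, a protease of the proteoglycan versican, lay between 95.8 and 249.6 CPM in air (median 119) and between 43.6 and 65.5 CPM in the combined group (median 51.9) and fell by 1.40 ± 0.19, and Adamts1 fell by 1.03 ± 0.14. Of 24 TGF-beta and BMP pathway genes 4 were higher and 6 lower, and 6 and 5 without air 6. The receptor Tgfbr1 rose (0.90 ± 0.08), while the genes for latent TGF-beta binding proteins Ltbp1, Ltbp3 and Ltbp4 fell (-0.58 ± 0.12, -0.59 ± 0.16 and -0.52 ± 0.09), Ltbp3 by less without air 6 (-0.39). Itgb8, an integrin chain that activates TGF-beta, rose by 1.26 ± 0.11. Of 18 integrins tested 6 were higher and 3 lower, and 9 and 3 without air 6. Of 21 Wnt pathway genes 7 were lower (6 without air 6) and none was higher, led by the secreted inhibitor Wif1 (-0.79 ± 0.22, and -0.42 without air 6) and the receptor Fzd1 (-0.75 ± 0.12).

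Of 16 cilia genes tested, 6 were lower (7 without air 6) and none was higher. Foxj1, the master factor of motile cilia, lay between 23.0 and 43.1 CPM in air (median 38.3) and between 20.5 and 26.8 CPM in the combined group (median 24.4), so the groups overlapped (-0.54 ± 0.14, adjusted p = 0.00733). Of 17 genes of xenobiotic enzymes tested, cytochromes P450 and flavin monooxygenases, 6 were lower (7 without air 6) and none was higher. Fmo2, the main lung flavin monooxygenase, lay between 511 and 1293 CPM in air (median 1199) and between 359 and 533 CPM in the combined group (median 501), and fell by 1.16 ± 0.17 (adjusted p = 0.000134). Cyp4b1 fell by 0.85 ± 0.15 and Cyp2b1 by 0.58 ± 0.10. Of 5 aryl hydrocarbon receptor targets tested, none was higher and 1 was lower, with and without air 6 (20% called, against 23.5% of all genes). Cyp1b1, another target, lay between 2.39 and 8.75 CPM in air (median 5.68) and between 1.47 and 7.38 CPM in the combined group (median 4.44) (-0.52 ± 0.34, adjusted p = 0.292), and was at -0.33 (0.508) without air 6.

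Lymphocyte markers were mostly not called. Of 18 T and NK cell markers 3 were higher and none was lower (1 was lower without air 6), and of 9 B and plasma cell markers 1 was higher. These were 16.7% and 11.1% of the tested markers, against 12.1% of all genes. Icos, a costimulatory receptor of activated T cells, lay between 4.17 and 7.33 CPM in air (median 6.59) and between 14.2 and 19.1 CPM in the combined group (median 16.7), without overlap (1.47 ± 0.17, adjusted p = 8.21e-06), and the plasma cell gene Mzb1 rose by 1.06 ± 0.26. Cd4 was not called (0.19 ± 0.11, adjusted p = 0.199), and passed without air 2 (0.28, 0.0469). Genes of class II antigen presentation were among those that rose. Of 17 antigen presentation genes tested, 9 were higher and none lower, among them RT1-Bb (1.03 ± 0.20), RT1-Da (0.82 ± 0.11) and the costimulator Cd86 (0.84 ± 0.23), while the class I peptide transporter gene Tap1 was not called (0.19 ± 0.14, adjusted p = 0.362). RT1 genes are near-identical copies whose reads the counting could split. Of 5 dendritic and mast cell markers 2 were higher and 1, listed as a mast cell marker, was lower, with and without air 6. The other mast cell genes listed (Cma1, Cpa3, Tpsab1, Ms4a2 and Fcer1a) were too low to be tested, so the list does not show a change in mast cells. Among the 2 that were higher, Clec9a, of cross-presenting dendritic cells, rose by 0.95 ± 0.21. Of 21 interferon-stimulated genes, 2 were higher (3 without air 6) and none was lower, 9.52% against 12.1% of all genes, the larger being Ifit3 (0.84 ± 0.16).

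Oxidant defence genes were divided. Of 28 genes of the NRF2, glutathione and thioredoxin list 11 were higher and 4 lower, and 12 and 3 without air 6. Slc7a11, the cystine importer, lay between 1.56 and 3.76 CPM in air (median 2.90) and between 8.80 and 21.2 CPM in the combined group (median 15.0), and rose by 2.28 ± 0.26. Srxn1, which repairs peroxiredoxins, rose by 1.94 ± 0.31, Hmox1, haem oxygenase 1, by 1.61 ± 0.13, and the mitochondrial Sod2 by 1.21 ± 0.09. Nqo1, a classical NRF2 target, was not called (0.30 ± 0.17, adjusted p = 0.229), and was at 0.51 (0.00202) without air 2, in which it was highest (67.0 CPM). Among the falls were 2 glutathione transferase genes, Gstp1 falling by 0.68 ± 0.15 and Gsta4 by 0.49 ± 0.11. Around haem and iron 6 of 18 genes were higher and 1, Cd163, lower, and 7 and 2 without air 6. The haem carrier Hpx rose by 1.39 ± 0.30 and the transferrin gene Tf by 0.85 ± 0.15. The beta globin gene Hbb, a sign of blood in the tissue, was not called (0.072 ± 0.19, adjusted p = 0.828), and its medians were 1968 and 2097 CPM.

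Many lipid synthesis genes rose by moderate amounts. Of 21 cholesterol synthesis and uptake genes 11 were higher and none lower, and 15 without air 6. Cyp51, a sterol demethylase, lay between 45.8 and 75.9 CPM in air (median 66.5) and between 86.3 and 110.1 CPM in the combined group (median 97.8) and rose by 0.64 ± 0.10, and Sqle, squalene epoxidase, rose by 0.60 ± 0.17. Of 19 fatty acid and lipid synthesis genes 11 were higher and none lower, led by Dgat2 (1.17 ± 0.13), which forms triglyceride, and Fasn (0.76 ± 0.13), fatty acid synthase. Scd, a fatty acid desaturase, was not called (0.13 ± 0.10, adjusted p = 0.391). Of 30 unfolded protein response, ATF4 and tRNA synthetase genes 15 were higher (16 without air 6) and none lower, most by small amounts, and the amino acid genes Slc7a5 (1.16 ± 0.15) and Phgdh (1.16 ± 0.26) by the most. Proliferation genes were 7 higher of 16, and 12 without air 6. Among them the ribonucleotide reductase subunit Rrm2 rose by 1.57 ± 0.32 and the replication helicase subunit Mcm5 by 1.41 ± 0.31, or by 2.01 without air 6. Mki67, the usual proliferation marker, was at 0.78 ± 0.27 (adjusted p = 0.0479) with all libraries, a call lost when any one of the 11 libraries other than air 6 was left out, and at 1.34 (5.83e-09) without air 6. Of 21 oxidative phosphorylation subunits 5 were higher (6 without air 6) and none lower. That was 23.8% called, against 23.5% of all genes called and 12.1% called higher. Of 16 eicosanoid genes 6 were higher and 2 lower, and 7 and 3 without air 6. Pla2g7, which cleaves platelet activating factor, rose by 1.29 ± 0.16, and the lipoxygenase gene Alox15 fell by 0.94 ± 0.20 (not called in the fit of all 24 libraries, adjusted p = 0.123).

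Circadian clock genes moved in both directions, 8 higher and 8 lower of 20 tested, 80% called against 23.5% of all genes. The repressor Nr1d1 lay between 4.79 and 13.9 CPM in air (median 9.74) and between 35.2 and 56.9 CPM in the combined group (median 45.3), and rose by 2.25 ± 0.20 (adjusted p = 9.1e-07). Dbp, a clock output factor, lay between 4.10 and 7.81 CPM in air (median 5.90) and between 19.4 and 29.2 CPM in the combined group (median 24.7) and rose by 2.08 ± 0.17. Both groups were fully apart for these 2 genes. Bhlhe41, Per3, Nr1d2 and Bhlhe40, all repressors in the loop, rose by 1.38 ± 0.23, 1.11 ± 0.14, 1.10 ± 0.11 and 0.89 ± 0.11. The activator Arntl lay between 60.6 and 81.8 CPM in air (median 67.1) and between 28.4 and 46.6 CPM in the combined group (median 34.2) and fell by 0.93 ± 0.12 (adjusted p = 2.21e-05). Its partners Npas2 and Clock fell by 0.75 ± 0.14 and 0.34 ± 0.06, and the repressor Cry1 fell by 1.01 ± 0.17. Per2 rose by 0.60 ± 0.15, while Per1 fell by 0.56 ± 0.17, a call lost without combined 5 (adjusted p = 0.0535). Cry2 and the kinase gene Csnk1d were not called (0.15 ± 0.09 and -0.13 ± 0.08, adjusted p = 0.234 and 0.268). All 16 called clock genes were called in the same direction without air 6.

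The E-box CACGTG, the element through which Arntl and Clock act, was found in the promoters of 5 of the 18 tested clock genes with an entry (27.8%) and in 6.42% of all 33469 promoters. The D-box TTANGTAA, bound by Dbp and Tef, was found in 1 of the 18 and in 2.24% of all. Shown are 3 clock genes with an E-box that moved in different directions, Nr1d1 and Tef higher and Ciart, a repressor also called Chrono, lower (-0.63 ± 0.14). The element starts 191 bases before the start site in Nr1d1 (chr10:84229405-84229704, minus strand), 198 before it in Tef (chr7:115206577-115206876, plus strand) and 93, 35 and 21 before it in Ciart (chr2:186112197-186112496, minus strand). Only 1 of the 2 Nr1d1 start sites in the table is printed.
Nr1d1: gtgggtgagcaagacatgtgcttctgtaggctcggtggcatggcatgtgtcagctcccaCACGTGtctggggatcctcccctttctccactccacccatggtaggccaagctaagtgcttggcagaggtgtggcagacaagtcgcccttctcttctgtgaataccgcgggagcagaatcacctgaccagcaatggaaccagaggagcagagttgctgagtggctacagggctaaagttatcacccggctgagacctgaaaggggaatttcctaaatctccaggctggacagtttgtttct
Tef: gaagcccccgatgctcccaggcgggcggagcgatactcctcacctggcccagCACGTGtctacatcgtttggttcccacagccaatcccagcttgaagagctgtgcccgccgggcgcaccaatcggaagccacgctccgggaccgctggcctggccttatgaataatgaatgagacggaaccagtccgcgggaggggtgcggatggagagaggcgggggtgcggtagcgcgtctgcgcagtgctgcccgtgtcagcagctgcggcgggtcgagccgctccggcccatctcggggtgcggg
Ciart: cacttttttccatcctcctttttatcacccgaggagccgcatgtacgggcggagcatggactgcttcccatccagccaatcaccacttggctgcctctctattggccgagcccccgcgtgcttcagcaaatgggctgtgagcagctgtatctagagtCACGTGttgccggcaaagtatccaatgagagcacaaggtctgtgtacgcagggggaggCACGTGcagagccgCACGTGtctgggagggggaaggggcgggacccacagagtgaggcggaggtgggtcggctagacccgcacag

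**Figure D4:**
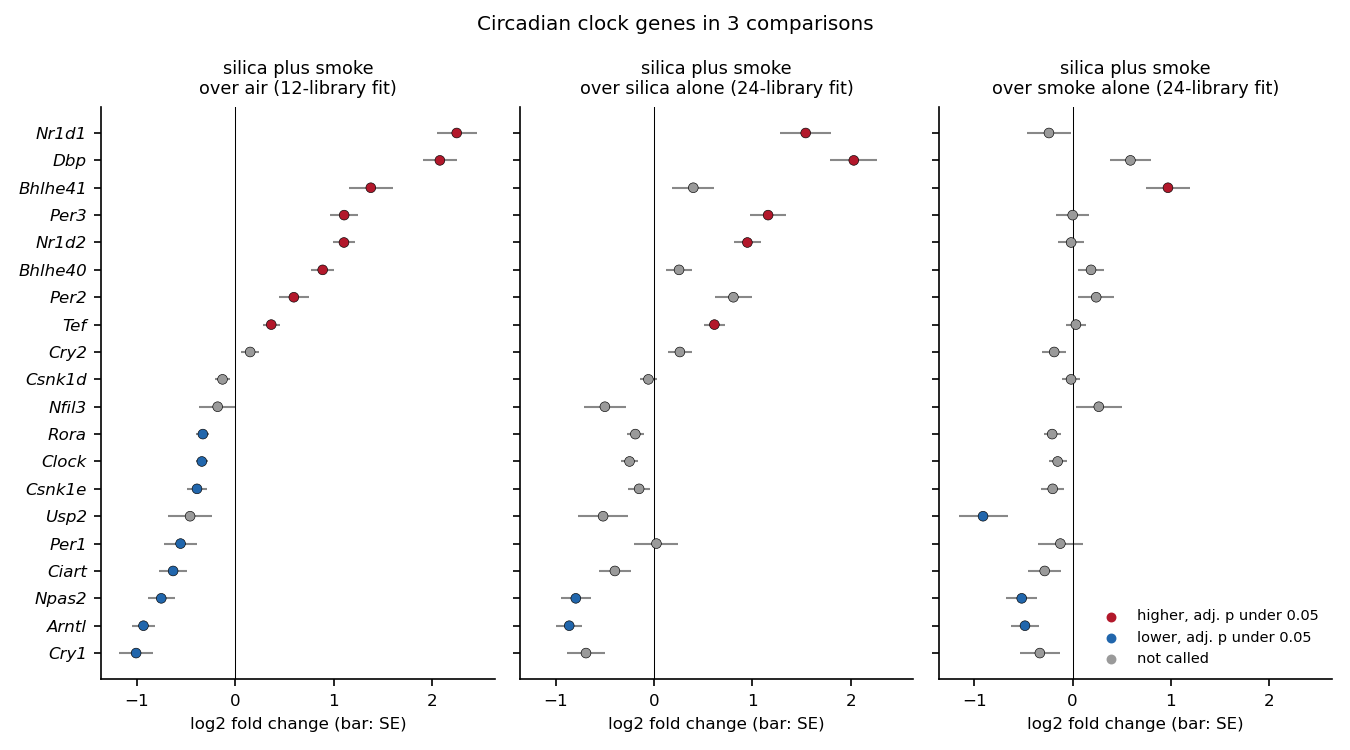
Each row is 1 of the 20 tested clock genes, and the x axis is the log2 fold change (bars, SE) of the combined group over air, over silica alone and over smoke alone. Red and blue points were called higher and lower. Nr1d1 stands at 2.25 over air, 1.54 over silica and -0.24 over smoke, and Arntl at -0.93, -0.86 and -0.48.

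Of 17 genes that glucocorticoids induce, 8 were lower and 2 higher, and 12 were lower and 2 higher without air 6. Zbtb16, a transcription factor strongly induced by these hormones, lay between 138 and 259.6 CPM in air (median 181) and between 29.7 and 85.7 CPM in the combined group (median 47.7), and fell by 1.91 ± 0.22 (adjusted p = 9.66e-06). Klf15 fell by 1.14 ± 0.15, Tsc22d3 (also called GILZ) by 0.79 ± 0.11 and Klf9 by 0.50 ± 0.12. Fkbp5, another widely used target, was not called (-0.32 ± 0.17, adjusted p = 0.205), and was at -0.34 (0.145) without air 6. Sgk1, a kinase in the list, rose by 0.37 ± 0.09. Among 20 heat shock chaperones 4 were lower and 1 higher (25% called, against 23.5% of all genes), and 7 were lower without air 6. Hspb1, a small chaperone, lay between 94.3 and 152 CPM in air (median 130.5) and between 57.0 and 65.5 CPM in the combined group (median 61.9), without overlap (-1.01 ± 0.11). Of 19 NF-kB feedback genes 5 were higher and 1 lower, 31.6% called against 23.5% of all genes. Zc3h12a, an RNase that degrades cytokine transcripts, rose by 0.96 ± 0.16 and Birc3 by 0.88 ± 0.17, while Nfkbia, the inhibitor IkB-alpha, was called lower (-0.57 ± 0.19, adjusted p = 0.0357). That call was lost in 10 of the 12 fits that left out 1 library (adjusted p 0.0508 to 0.0835), and held without air 6 (-0.74, 7.27e-07) or combined 3. Of 19 growth factor feedback genes 3 were lower (5 without air 6) and 1, the phosphatase gene Dusp4, was higher (1.03 ± 0.16). That was 21.1% called, against 23.5% of all genes. Spry1, a feedback inhibitor of receptor tyrosine kinases, fell by 0.74 ± 0.14.

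Apart from that of the macrophage marker Cd163, the largest falls were outside the inflammatory lists. Npr3, the clearance receptor for natriuretic peptides, lay between 198 and 407 CPM in air (median 239) and between 47.5 and 87.6 CPM in the combined group (median 66.7), and fell by 1.90 ± 0.17 (adjusted p = 5.91e-07). Sh2d7, an adaptor protein gene, fell by 2.02 ± 0.45 and Trpm5, a cation channel of chemosensory tuft cells, by 1.36 ± 0.25. Sh2d7 was low, at a median of 4.83 CPM in air and 1.48 CPM in the combined group. After these values had been seen, 2 more tuft cell genes were looked up. Avil, an actin-binding protein, also fell (-0.71 ± 0.20), and Dclk1, a kinase, was not called (-0.28 ± 0.17, adjusted p = 0.249). Slc6a2, the noradrenaline transporter, fell by 1.42 ± 0.24, the laminin chain Lamc3 by 1.40 ± 0.37 (by less without air 6, -0.80) and the nuclear receptor gene Nr2f1 by 1.33 ± 0.27. Tmem72, which rose and whose function is not known, had 2 counts in the air group and 71 in the combined group, a CPM ratio of 44.7 with a counting interval of 11.9 to 376.

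To see which of these differences the single exposures also had, the combined group was compared with silica alone and with smoke alone in 1 fit of all 24 libraries. These comparisons share the combined libraries with the comparison above. In the silica group, the library labelled silica 1 had marker levels near those of air, in the smoke group the library labelled smoke 1 had levels near those of silica, and smoke 2 had very few counts, as the plot of levels by group shows. Spp1 was at 1.86 CPM in silica 1 and at 33.5 CPM in smoke 1. Without these 3 libraries the tests were repeated, a setting that keeps air 6.

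**Figure D5:**
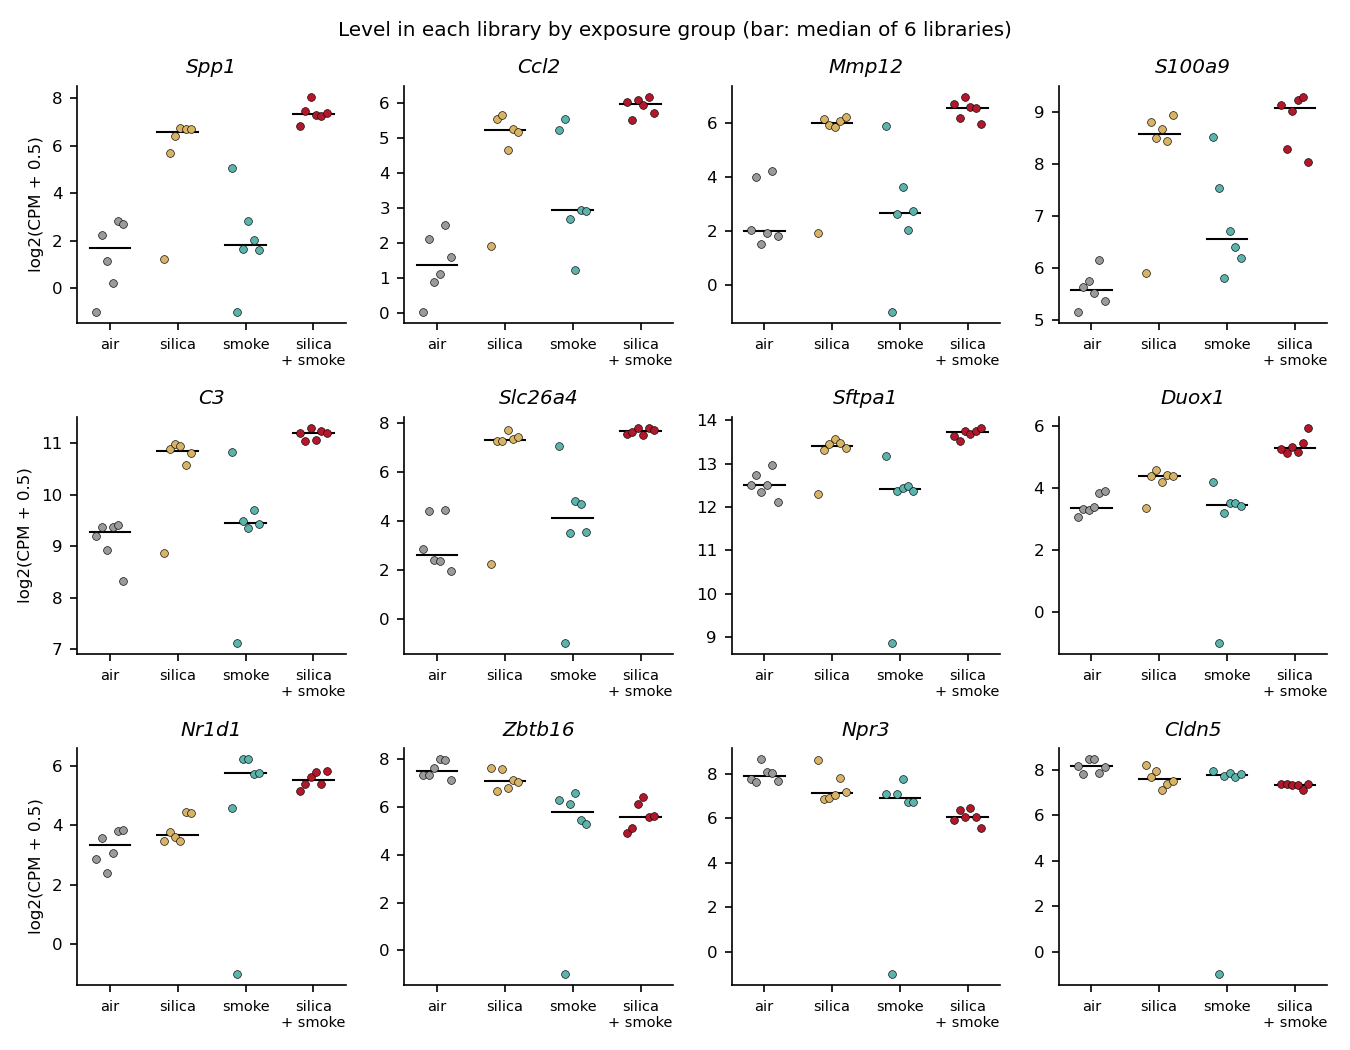
Each panel is 1 gene, with log2(CPM + 0.5) on the y axis for 6 libraries in each of the 4 exposure groups (points) and the group median (bars). In several panels the lowest smoke point is smoke 2, which had very few counts. For Spp1 the combined libraries lie at 113 to 267 CPM and the air libraries at 0 to 6.74 CPM, while for Nr1d1 and Zbtb16 the combined libraries lie near those of smoke.

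Against silica alone 16 genes were higher (0.12%) and 17 lower (0.128%) of 13322 tested, and 23 and 17 without the 3 doubtful libraries. 27 genes were called both ways, 13 higher and 14 lower. Clock genes led them. Dbp was higher in the combined group by 2.03 ± 0.24 (adjusted p = 2.65e-05), Nr1d1 by 1.54 ± 0.26, Per3 by 1.16 ± 0.18 and Nr1d2 by 0.95 ± 0.14, and Arntl and Npas2 were lower (-0.86 ± 0.13 and -0.79 ± 0.15). In all, 5 of the 20 clock genes were higher and 2 lower. Zbtb16 (-1.54 ± 0.24) and Npr3 (-1.50 ± 0.25) were also lower. Duox1 was higher by 1.15 ± 0.19. It had means of 18.7 CPM with silica alone and 41.5 CPM with both. Several genes with large rises over air were not called against silica. Spp1 was at 1.25 ± 0.39 (adjusted p = 0.166), Ccl2 at 0.84 ± 0.36 (0.321), Mmp12 at 0.74 ± 0.43 (0.469) and Lpo at 1.01 ± 0.48 (0.377). The library silica 1 enters these values. Without the 3 doubtful libraries, Spp1 was at 0.96 (adjusted p = 0.0587), Ccl2 at 0.56 (0.24), Mmp12 at 0.46 (0.566) and Lpo at 0.70 (0.0319), the last of which passed. Not every gene that rose over air lay above silica alone. Cxcl6, not called in the fit of all 24 libraries, lay between 11.9 and 24.9 CPM in the combined group. It lay between 33.2 and 42.8 CPM in silica 2 to 6, and at 4.20 CPM in silica 1.

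Against smoke alone 978 genes were higher (7.34%) and 742 lower (5.57%), and 1353 and 1398 without the 3 doubtful libraries. Inflammatory and defence genes were among the rises. Spp1 was higher by 3.99 ± 0.51 (adjusted p = 2.95e-05), Retnla by 3.69 ± 0.55, Orm1 by 2.91 ± 0.57, Ccl7 by 2.56 ± 0.41, Chia by 2.55 ± 0.38 and Cfi by 2.46 ± 0.37. The library smoke 1 enters these values. Without the 3 doubtful libraries the differences were 5.43 for Spp1, 5.49 for Retnla, 5.75 for Orm1, 3.64 for Ccl7, 3.09 for Chia and 3.29 for Cfi, and without smoke 1 alone they lay between 3.13 (Chia) and 5.75 (Orm1). Of 28 lysosomal genes 21 were also higher against smoke, and of 21 cholesterol synthesis and uptake genes 14. Of 20 clock genes 16 were not called against smoke, nor was the glucocorticoid-induced Zbtb16. Nr1d1 was at -0.24 ± 0.22 (adjusted p = 0.524), Dbp at 0.59 ± 0.21 (0.0574) and Zbtb16 at -0.35 ± 0.25 (0.386). Dbp passed by limma voom (0.66, adjusted p = 0.0335), also with quality weights (0.50, 0.0336). It passed too in a fit of the 12 libraries of the 2 groups (0.59, 0.0373) and without combined 2 (0.66, 0.0487). Without the 3 doubtful libraries it was at 0.36 (0.152). The 4 clock genes called were Bhlhe41, which was higher (0.97 ± 0.22), and Arntl, Npas2 and Usp2, which were lower (-0.48 ± 0.14, -0.52 ± 0.16 and -0.91 ± 0.25). Each of these 3 lower calls was lost without some single library. Arntl lost it without smoke 1 (-0.31, adjusted p = 0.1) or combined 3 (-0.42, 0.0617), and also without the 3 doubtful libraries together (-0.34, 0.0604). Npas2 lost it without smoke 1 or 4 or combined 2, 3, 5 or 6 (adjusted p 0.0528 to 0.0871), and Usp2 without smoke 3 or 6 (0.0509 and 0.0529). A value that did not pass the test does not show that the groups were alike.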

How the data were processed

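RNA of a piece of lung tissue was sequenced per animal after removal of ribosomal RNA with a kit that keeps strand, per the labels' protocols. The authors deposited raw counts of reads for every gene as whole numbers in 1 table. The submitters' processing notes name HTSeq 0.11.2 for this, besides HISAT2 2.1.0, Trimmomatic 0.35, SAMtools 1.8, bcl2fastq 2.19 and Cufflinks. The strand setting of counting, the annotation and the build were not given in the sources used here. Antisense, overlapping and near-identical genes are therefore uncertain. Of 30069 lines, 26 repeated another line and were removed, leaving 30043 genes.

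Counts were fitted in R 4.3.3 with edgeR 4.0.16 (filterByExpr, minimum count 10, TMM scaling, two-sided quasi-likelihood F test, Benjamini-Hochberg). The 12 libraries of the combined and air groups gave 10 residual degrees of freedom. Comparisons with silica alone and smoke alone used all 24 libraries (20 residual degrees of freedom). Standard errors were obtained by dividing the size of a log2 fold change by the root of its F statistic. On simulated counts for 13049 genes, 86 of 100 genes changed by 2-fold and 100 of 100 changed by 4-fold were recovered. DESeq2 1.42.0, limma voom 3.58.1, other scalings and filters, and the omission of single libraries were the alternatives. All 66 pairs of the 12 libraries differed by more than counting noise (lowest chi-square per degree of freedom 1.73). Animals were counted as separate per the labels, replicate numbers follow the order of deposit, and counting intervals are exact at 95%.

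The comparison, 42 gene lists (880 distinct genes, 874 found, 739 tested), promoter motifs and naming rule were chosen with earlier results of these data known, and the lists are not independent evidence. A gene was stable when called the same way in all 12 single-library omissions, by DESeq2 and by voom (2150 genes). The rule named the 15 largest stable rises and falls without overlap between groups, up to 5 stable and 2 abundant uncalled genes per list, 14 fixed genes, and genes leading the comparisons with silica and smoke. For the 15 rises and falls, a mean of at least 1 CPM over the 12 libraries was required, and locus identifiers and RT1 genes were passed over. Genes named outside it, after their values were seen, were Ager, Aldh1a1, Avil, Bhlhe40, C4b, Ccl5, Cfb, Ciart, Cldn4, Clock, Col3a1, Cry1, Cxcl14, Cxcr2, Cxcr7, Dclk1, Duoxa1, Fkbp5, Gsta4, Gstp1, Il1b, Il33, Il4r, Mki67, Muc5b, Nfkbia, Npas2, Per1, Per2, Pigr, Sgk1, Thbs2, Usp2 and Vcan. Results for some genes that the rule named are not reported here.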

Additional observations from a re-analysis of the deposited data

Results flagged for a closer look

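Among the named genes, 354 sets of 6 libraries were examined for 1 library whose gap to the nearest of the others was too large a part of the group's range (above Dixon's 95% value for 6 samples), and 60 such values were found. Chance alone would give about 1 such set in 20, but some of these genes were named after their values had been seen. The number found is therefore not a measure of excess over chance. Over all genes tested, air 6 was the far library for 6.94%, and each of the other libraries for 0.353% to 2.9%. Among the 60 values of the named genes, air 6 accounted for 34, more than any other library, and combined 4 for 5. In air 6, matrix and mural genes stood far above the other 5 air libraries, namely Col1a1 (480 CPM, others 44.4 to 119), Col3a1 (5100.5 CPM, others 681 to 880), Col14a1 (100.5 CPM, others 32.1 to 55.7), Eln (1133 CPM, others 351 to 451), Fbln5 (106 CPM, others 28.4 to 45.5), Ltbp1 (271 CPM, others 151 to 168), Ltbp3 (73.2 CPM, others 34.9 to 45.0), Thbs2 (25.0 CPM, others 2.25 to 6.00), Vcan (86.8 CPM, others 19.8 to 29.7), Adamts9 (249.6 CPM, others 95.8 to 142), Lamc3 (73.6 CPM, others 13.3 to 28.7), Pdgfrb (267 CPM, others 112 to 152) and Tagln (259.6 CPM, others 67.0 to 117). Among secretory, acute phase and iron genes, air 6 was far above the others for Bpifb1 (46.3 CPM, others 1.000 to 2.39), Muc5b (71.7 CPM, others 3.33 to 6.74), Lcn2 (68.3 CPM, others 8.85 to 20.98), Saal1 (2.99 CPM, others 0.342 to 1.33), Tf (96.0 CPM, others 58.8 to 68.7) and C7 (1321 CPM, others 538 to 647). Of proliferation and sterol genes, it was far above them for Mki67 (101 CPM, others 26.3 to 35.2), Mcm5 (14.1 CPM, others 2.39 to 6.37) and Sqle (41.2 CPM, others 22.4 to 29.4). The tuft cell, signalling and other genes far above the others in air 6 were Sh2d7 (13.0 CPM, others 4.00 to 6.25), Trpm5 (38.2 CPM, others 16.1 to 23.0), Dclk1 (40.5 CPM, others 19.1 to 22.9), Cxcl14 (49.5 CPM, others 9.37 to 21.4), Slc6a2 (29.2 CPM, others 11.5 to 16.7) and Wif1 (167 CPM, others 57.3 to 72.4). Air 6 was far below the other air libraries for Ccl5 (15.2 CPM, others 32.8 to 39.0), Cd163 (10.4 CPM, others 23.2 to 27.8), Cyp2b1 (327 CPM, others 465 to 539), Cyp4b1 (306 CPM, others 639.9 to 722) and Fmo2 (511 CPM, others 1096 to 1293). Its single Lpo count (0.213 CPM) was the only one in the air group. Its levels of Fmo2, Cyp4b1, Cyp2b1, Cd163 and Ccl5 thus lay toward the combined group, while its levels of Eln, Col14a1, Adamts9, Sh2d7 and Trpm5 lay away from it.

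Air 1 stood apart for Cry2 (44.8 CPM, others 37.3 to 39.5) and Scgb1a1 (2436 CPM, others 1447 to 1803). Air 2 stood apart for Ccr1 (25.8 CPM, others 14.7 to 18.3), Gstp1 (186 CPM, others 95.5 to 113), Hbb (2921 CPM, others 1719 to 2169) and Nqo1 (67.0 CPM, others 31.8 to 35.6). Air 3 stood apart for Clock (218 CPM, others 197 to 204) and Npr3 (407 CPM, others 198 to 273). Air 4 stood apart for Hpx (6.67 CPM, others 1.91 to 3.20). Air 5 stood apart for Clec4e (10.1 CPM, others 1.44 to 3.67), Fkbp5 (93.7 CPM, others 37.3 to 56.1) and Osm (6.37 CPM, others 1.67 to 2.39). Combined 1 stood apart for Muc5b (64.2 CPM, others 8.91 to 28.6). Combined 3 stood apart for Chi3l1 (698 CPM, others 548 to 585) and Per3 (79.5 CPM, others 55.4 to 63.6). Combined 4 stood apart for Ackr4 (21.2 CPM, others 8.42 to 12.2), Birc3 (31.3 CPM, others 39.0 to 43.6), Il1r2 (4.61 CPM, others 7.92 to 9.90), Spry1 (36.0 CPM, others 20.2 to 24.8) and Sqle (20.3 CPM, others 42.6 to 51.3). Combined 5 stood apart for Cldn5 (137 CPM, others 159 to 166) and Vcan (54.5 CPM, others 32.2 to 37.8). Combined 6 stood apart for Cyp2b1 (255 CPM, others 301 to 324), Duox1 (60.4 CPM, others 34.0 to 42.7), Il1rn (81.7 CPM, others 47.1 to 58.2) and Sftpd (1858 CPM, others 1367 to 1526). Nqo1, which was not called with all libraries, passed the test without air 2.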

How the results depend on the processing

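Under the alternatives to the comparison with air, the counts of genes higher and lower stayed within 1.5 times of 1577 and 1495. They ran from 1322 to 1784 higher and from 1208 to 1599 lower when 1 library was left out, and were 1508 and 1355 with DESeq2, 1680 and 1443 with limma voom, and 1887 and 1736 with voom quality weights, which gave air 6 a weight of 0.198. Scaling by total counts moved the share of higher genes among those called from 51.3% to 40.7% (1305 higher, 1901 lower), and in the comparison with smoke from 56.9% to 47% (788 and 890). Medians of 3 lists near 0 turned negative under that scaling (injured or transitional epithelium, interferon-stimulated genes, and the T and NK cell list). Of 151 named genes called against air, 140 were called under every alternative, 8 lost the call when some library was left out and 9 under another setting, and none changed sign. Those settings were the fit of all 24 libraries for Ager, Aldh1a1, Alox15 and Per1, limma voom for Ccl5, Cxcl14, Cxcr7 and Nfkbia, DESeq2 for Mki67 and Nfkbia, and total scaling for Mki67. Of 26 named genes not called, 10 passed under some alternative, C7 and Muc5b (0.38 and 1.81) with voom quality weights as well as without air 6, and 6 changed sign. With 1 library left out these 6 ran from -0.042 to 0.31 (Ccl6), -0.042 to 0.21 (Hbb), -0.10 to 2.23 (Muc5b), -0.15 to 0.098 (Scgb1a1), -0.016 to 0.11 (Sftpb) and -0.051 to 0.64 (Vcan), and voom quality weights gave -0.023 for Hbb and -0.0053 for Sftpb.

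Against silica, 16 and 17 genes became 57 and 59 with voom quality weights and 47 and 53 in a fit of the 12 libraries concerned, and ran from 9 to 31 and from 7 to 26 with 1 library left out. The lowest counts came without silica 1, combined 3 or combined 6. Against smoke, 978 and 742 became 518 and 487 with DESeq2 and 1765 and 1603 with voom quality weights, the lower count became 1398 without silica 1, smoke 1 and smoke 2, and both ran from 581 to 1263 and from 324 to 949 with 1 library left out, lowest without smoke 3. The cause of these shifts was not tested. No paired analysis was possible because the labels give no replicate number or pairing across groups. A gene at 3 counts stood at 0.64 to 2.77 CPM in the 12 libraries, which limits what can be said of low genes.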
